A study of Mus musculus with 77 samples.

Results

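Dopamine signalling and striatal projection neuron genes were followed in RNA bound to Argonaute 2 (AGO2) in the mouse BNST, short for bed nucleus of the stria terminalis. The genes were 9 of the 16587 genes in the AGO2 mRNA table, taken by symbol, namely Drd1, Drd2, Adora2a, Ppp1r1b, Adcy5, Rgs9, Pde10a, Pde1b and Gnal, and all 9 had a row. The mice were 8-week-old C57BL/6Crl (B6) males, and each sample was a pool of BNST punches from 3 mice. There were 5 pools of undefeated control mice, 5 pools of mice that had gone through chronic social defeat stress (CSDS) and still approached a social target as controls did (resilient), and 4 pools of defeated mice that avoided it (susceptible). Tissue was taken 6 to 8 days after the last defeat, and no genotype beyond the strain is given. The resilient and susceptible groups were both defeated and were told apart only by their own behaviour after defeat. The labels do not say which defeat cohort a pool came from, so p-values measure the spread between these pools.

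Dopamine acts on striatal projection neurons through the receptors encoded by Drd1, which raises cyclic AMP, and Drd2, which lowers it. These receptors largely mark separate neurons, those of the direct and of the indirect pathway, and the indirect pathway neurons also carry the adenosine receptor encoded by Adora2a. Cyclic AMP then activates protein kinase A, which phosphorylates DARPP-32, the product of Ppp1r1b, and phosphodiesterases remove the cyclic nucleotide again. The BNST belongs to the extended amygdala, lies next to the striatum and is built mostly of GABAergic neurons, and parts of it also hold dopamine receptors. AGO2 carries microRNAs (miRNAs) to their target mRNAs, so an AGO2 immunoprecipitate holds miRNAs together with the mRNAs bound to them. In such pools a lower value can come from fewer cells of a type, less mRNA per cell or less AGO2 binding, and these cannot be told apart here.

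AGO2-bound miRNAs were measured in the same immunoprecipitates, and the seed matches in the 3′ untranslated regions (UTRs) of the genes are shown because they are the sequences by which AGO2-bound miRNAs can pair with these mRNAs. Of the 20 most abundant AGO2-bound miRNAs of the control pools, 17 had a mature sequence in the RefSeq (GRCm38.p6) set used. These 17 had 12 different seeds, and the others, miR-30d-5p, miR-143-3p and miR-328-3p, were not searched. The mature miRNAs with a 7-base seed match followed by an A in the UTR are printed 5′ to 3′ with bases 2 to 8, the seed, in capitals.
miR-30a-5p: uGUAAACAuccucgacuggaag
miR-30e-5p: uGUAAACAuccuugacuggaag
miR-541-5p: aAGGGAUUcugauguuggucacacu
miR-125a-5p: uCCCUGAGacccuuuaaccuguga
miR-128-3p: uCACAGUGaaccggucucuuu
miR-92b-3p: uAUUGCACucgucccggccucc
The target sites on the mRNA strand follow, with the 7 bases that match the seed and the A after them in capitals.
Drd1, miR-30a-5p and miR-30e-5p: gttgtttgaaaTGTTTACAaggtgttcttt
Drd2, miR-541-5p: actctagtgtgAATCCCTActttccatagc
Adora2a, miR-125a-5p: accgccgaggcCTCAGGGAgctgctgacct
Pde10a, miR-128-3p: cttgcccagaaCACTGTGAaacacttaaca
Pde10a, miR-92b-3p: aaagtgcgcaaGTGCAATAatttaaagagg
The A lies opposite the first base of the miRNA, with which it can pair in all of these except miR-541-5p, whose first base is also an A.

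In GRCm38 the Drd1 site lay at chr13:54051352-54051381 on the minus strand, and the Drd2 site at chr9:49407659-49407688 on the plus strand. The Adora2a site was at chr10:75334295-75334324 on the plus strand. The Pde10a sites were at chr17:8985866-8985895 and chr17:8986236-8986265, both on the plus strand. All 5 were in 3′ UTRs of the GENCODE M21 annotation.

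Over the 8 genes searched, which left out Gnal, there were 21 matches of 7 bases to the 12 seeds, 5 of them followed by an A, in 18361 bases of UTR. That was 1.14 matches per kb, beside 1.03 per kb in the UTRs of 13535 genes, so the genes held about as many matches for their length as genes in general. Pde10a, with the longest UTR of the genes searched (6877 bases), held 9 matches, and Ppp1r1b held 0 in 729 bases. The UTR of the Pde10a transcript searched is spliced over several exons across chr17:8941248-8986645, and 2 of its matches lie in stretches that cross an exon junction. Its matches at bases 509, 764 and 1671 lie before the last exon. Whether those exons are coding in other Pde10a transcripts was not checked. The miR-128-3p match (CACTGTG) was present 6 times, in Adora2a, Adcy5, Pde10a and Pde1b, and 25.1% of all genes held at least 1. The miR-125a-5p match (CTCAGGG) was present in Adora2a, Adcy5, Rgs9 and Pde1b, and in 17.3% of all genes. The miR-541-5p match (AATCCCT) was present in Drd2, Rgs9 and Pde10a, and in 9.69% of all genes. The match of the 5 let-7 miRNAs (CTACCTC) was present in none of the 8, and in 12.3% of all genes. Only the strand of the mRNA was searched, and a match describes the letters and not a site in use.

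The miRNAs with matches were abundant in AGO2 in each of the 3 groups. The level of miR-128-3p was 14.66 ± 0.245 log2 CPM (mean ± SD, n = 5) in control, 14.37 ± 0.177 (n = 5) in resilient and 14.67 ± 0.104 (n = 3) in susceptible pools. The level of miR-125a-5p was 15.12 ± 0.0798, 14.86 ± 0.0553 and 14.78 ± 0.167 log2 CPM in the same order. The level of miR-541-5p was 14.23 ± 0.103, 14.52 ± 0.161 and 14.36 ± 0.0739 log2 CPM. Susceptible pool 3 had no miRNA library, and the miRNA levels were not tested here.

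Values are log2 CPM, that is log2 of reads counted for a gene relative to the scaled total of the library, so 1 unit is 2-fold. The AGO2 mRNA libraries held 4496314 to 6162932 reads in control, 3701281 to 10659882 in resilient and 5146998 to 7604641 in susceptible pools, with resilient pool 3 the deepest and resilient pool 5 the shallowest. A gene was called where limma gave p under 0.05 and the fold change was at least 1.2. For each of the 9 genes the pools were also permuted between groups in an exact two-sided test, whose smallest possible p is 0.00794 for resilient and 0.0159 for susceptible against control pools.

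The 9 genes were well represented in AGO2-bound RNA. Per kb of exon, the control level was highest for Ppp1r1b at 6.96 log2 CPM per kb, followed by Pde1b at 6.47, Pde10a at 6.37 and Drd1 at 6.10. Adcy5 was at 5.74, Rgs9 at 5.11 and Gnal at 4.89 log2 CPM per kb. Drd2 at 4.36 and Adora2a at 4.17 were the lowest of the 9, and both were still above the median gene at 2.58. Ppp1r1b was above 99.6% of the genes with a length and Adora2a above 83.1%.

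Compared with control pools, all 9 mean levels were lower in resilient and in susceptible pools, and for 2 of the 9, Adora2a and Gnal, the difference was called in each comparison. The median log2 fold change of the 9 was −0.41 in resilient and −0.61 in susceptible pools, beside −0.02 and −0.01 for all genes. Among all genes 9.04% were called lower in resilient and 9.28% in susceptible pools. For all 9 genes the order of the means was control, resilient, susceptible, and resilient and susceptible means differed by less than the SD of either group. Only for Pde10a and Gnal did susceptible means stay below resilient means whichever pool was left out. For the others the order turned, as for Drd1 (0.12) and Drd2 (0.19) without susceptible pool 3. No adjusted p of the 9 genes reached 0.05 by limma, and both comparisons share the control pools.

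**Figure D1:**
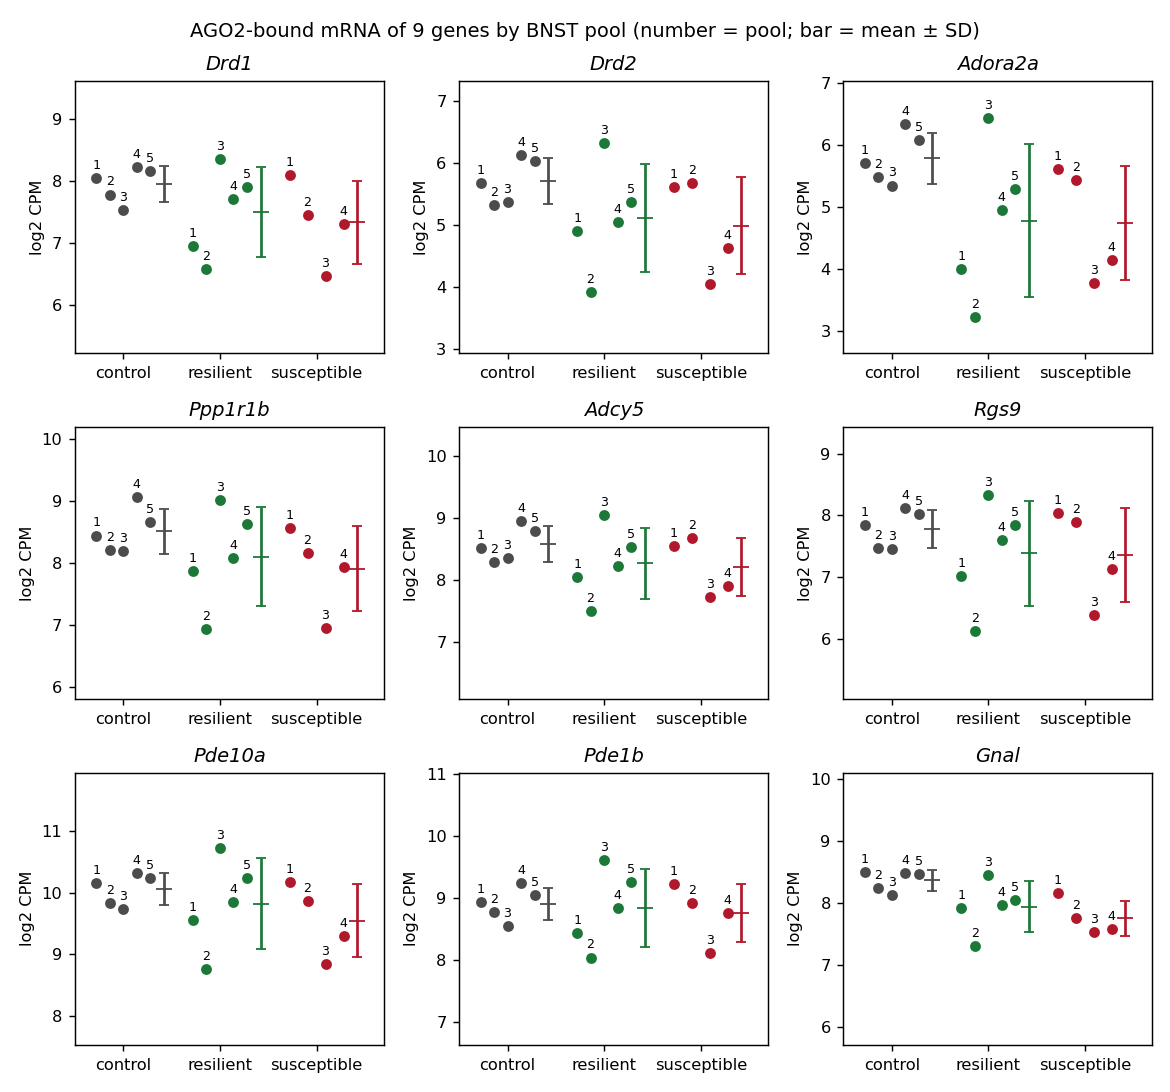
AGO2-bound mRNA of the 9 genes in log2 CPM (vertical axis) in each BNST pool, grouped as control, resilient and susceptible, with the pool number above each point and a bar for the mean ± SD. Resilient pool 2 and susceptible pool 3 sit lowest in most panels and resilient pool 3 among the highest, so that the groups overlap for every gene.

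Drd1 encodes the dopamine receptor of direct pathway neurons (chr13:54051183-54055705, minus strand). It was at 8.06, 7.78, 7.54, 8.24 and 8.16 log2 CPM in control pools 1 to 5, at 6.96, 6.58, 8.36, 7.71 and 7.90 in resilient pools 1 to 5, and at 8.11, 7.45, 6.47 and 7.31 in susceptible pools 1 to 4. Resilient pools 1 and 2 and susceptible pools 2 to 4 were below every control pool, whereas resilient pool 3 was above every one of them. The log2 fold change was −0.45 (SE 0.30, adjusted p = 0.405 by limma) in resilient and −0.62 (SE 0.32, adjusted p = 0.277) in susceptible pools. The exact permutation p was 0.254 and 0.0952, so neither difference passed. Without resilient pool 2 the first was −0.22, and without susceptible pool 3 the second was −0.33.

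Drd2 encodes the receptor that lowers cyclic AMP in indirect pathway neurons (chr9:49340627-49408177, plus strand). It was at 5.67, 5.33, 5.38, 6.13 and 6.04 log2 CPM in the control pools, at 4.90, 3.93, 6.33, 5.05 and 5.38 in the resilient pools and at 5.61, 5.68, 4.05 and 4.63 in the susceptible pools. Resilient pools 1, 2 and 4 and susceptible pools 3 and 4 were below the control range, and the other pools were inside or above it. The log2 fold change was −0.59 (SE 0.36, exact permutation p = 0.198) in resilient and −0.72 (SE 0.38, exact permutation p = 0.143) in susceptible pools, and neither was called. They were −0.30 without resilient pool 2 and −0.40 without susceptible pool 3.

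Adora2a encodes the adenosine receptor that raises cyclic AMP in the same indirect pathway neurons (chr10:75316877-75334784, plus strand). It was at 5.70, 5.48, 5.35, 6.33 and 6.08 log2 CPM in the control pools, at 3.99, 3.23, 6.44, 4.95 and 5.29 in the resilient pools and at 5.61, 5.43, 3.77 and 4.14 in the susceptible pools. Of the 9 genes it varied most, with a 9.27-fold range between resilient pools 2 and 3, and resilient pool 3 was above all control pools while the other 4 resilient pools were below all of them. It was 2.01-fold lower in resilient pools (log2 fold change −1.01, SE 0.47, adjusted p = 0.231 by limma) and 2.07-fold lower in susceptible pools (log2 fold change −1.05, SE 0.50, adjusted p = 0.233). Both were called, at an unadjusted limma p of 0.0455 and 0.0486, but the exact permutation p was 0.127 and 0.0794. The call in resilient pools was lost without control pool 1, 4 or 5 or resilient pool 1, 2 or 4, with log2 fold changes of −0.62 (without resilient pool 2) to −1.05. The call in susceptible pools was lost without control pool 1, 2, 4 or 5, resilient pool 4 or 5, or susceptible pool 3 or 4, with −0.73 without susceptible pool 3 and −0.85 without susceptible pool 4.

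Gnal encodes the G protein alpha subunit, known as Golf, through which the receptors of Drd1 and Adora2a stimulate adenylyl cyclase in striatal neurons (chr18:67088216-67226792, plus strand). It was at 8.51, 8.25, 8.12, 8.48 and 8.47 log2 CPM in the control pools, at 7.93, 7.31, 8.46, 7.97 and 8.05 in the resilient pools and at 8.16, 7.76, 7.53 and 7.59 in the susceptible pools. It had the smallest spread of the 9, and every defeated pool except resilient pool 3 and susceptible pool 1 was below every control pool. Gnal was 1.34-fold lower in resilient pools (log2 fold change −0.42, SE 0.17, adjusted p = 0.161 by limma) and 1.53-fold lower in susceptible pools (log2 fold change −0.61, SE 0.18, adjusted p = 0.0592). The unadjusted limma p was 0.0202 and 0.0029, and the exact permutation p was 0.0476 and 0.0317. The call in susceptible pools was kept when each pool was left out in turn, with log2 fold changes of −0.53 to −0.74, and the call in resilient pools was lost without resilient pool 2 (−0.27, adjusted p = 0.351 by limma).

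Adcy5 encodes the main adenylyl cyclase of striatal projection neurons (chr16:35154877-35305738, plus strand). It was at 8.52, 8.29, 8.36, 8.96 and 8.80 log2 CPM in the control pools, at 8.05, 7.50, 9.05, 8.23 and 8.54 in the resilient pools and at 8.55, 8.68, 7.73 and 7.91 in the susceptible pools. Resilient pools 1, 2 and 4 and susceptible pools 3 and 4 were below the control range, the same 5 pools as for Drd2. The log2 fold change was −0.31 (SE 0.24, exact permutation p = 0.317) in resilient and −0.37 (SE 0.25, exact permutation p = 0.19) in susceptible pools, and neither was called. Without resilient pool 2 the difference in resilient pools was −0.12, and without susceptible pool 3 that in susceptible pools was −0.20.

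Ppp1r1b encodes DARPP-32, which inhibits protein phosphatase 1 once protein kinase A has phosphorylated it (chr11:98348404-98357796, plus strand). It was at 8.44, 8.21, 8.19, 9.07 and 8.66 log2 CPM in the control pools, at 7.87, 6.93, 9.01, 8.08 and 8.63 in the resilient pools and at 8.57, 8.17, 6.95 and 7.93 in the susceptible pools. Resilient pool 2 and susceptible pool 3 were more than 1 unit below every control pool. The log2 fold change was −0.41 (SE 0.33, exact permutation p = 0.349) in resilient and −0.61 (SE 0.35, exact permutation p = 0.127) in susceptible pools, and neither was called. The same differences were −0.12 without resilient pool 2 and −0.29 without susceptible pool 3.

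Rgs9 encodes a regulator of G protein signalling that speeds the shut-off of inhibitory G proteins and has a splice form typical of the striatum (chr11:109225355-109298129, minus strand). It was at 7.84, 7.48, 7.46, 8.12 and 8.03 log2 CPM in the control pools, at 7.02, 6.13, 8.34, 7.61 and 7.85 in the resilient pools and at 8.03, 7.89, 6.39 and 7.13 in the susceptible pools. Resilient pools 1 and 2 and susceptible pools 3 and 4 were below all control pools, and the remaining defeated pools were inside or above the control range. The log2 fold change was −0.40 (SE 0.34, exact permutation p = 0.381) in resilient and −0.43 (SE 0.36, exact permutation p = 0.317) in susceptible pools, and neither was called. Most of each difference rested on 1 pool, since it was −0.08 without resilient pool 2 and −0.10 without susceptible pool 3.

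The phosphodiesterases of the set were spread over the same pools. Pde10a, which breaks down both cyclic AMP and cyclic GMP (chr17:8525372-8986648, plus strand), was at 10.15, 9.83, 9.74, 10.32 and 10.24 log2 CPM in the control pools, at 9.55, 8.76, 10.72, 9.85 and 10.24 in the resilient pools and at 10.17, 9.86, 8.84 and 9.30 in the susceptible pools. Pde1b, which is activated by calcium and calmodulin (chr15:103503034-103530052, plus strand), was at 8.93, 8.77, 8.55, 9.24 and 9.04 log2 CPM in the control pools, at 8.43, 8.04, 9.61, 8.84 and 9.25 in the resilient pools and at 9.22, 8.92, 8.12 and 8.75 in the susceptible pools. For Pde1b only resilient pools 1 and 2 and susceptible pool 3 were below the control range, and resilient pools 3 and 5 were above it. The log2 fold change of Pde10a was −0.23 (SE 0.29, exact permutation p = 0.556) in resilient and −0.51 (SE 0.31, exact permutation p = 0.159) in susceptible pools. That of Pde1b was −0.07 (SE 0.25, exact permutation p = 0.817) and −0.15 (SE 0.26, exact permutation p = 0.556), the smallest differences of the 9 genes, and none of the 4 was called. Without resilient pool 2 both genes were slightly higher in resilient than in control pools, by 0.03 for Pde10a and 0.13 for Pde1b on the log2 scale, with no call. Without susceptible pool 3 the difference in susceptible pools was −0.27 for Pde10a and 0.06 for Pde1b.

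**Figure D2:**
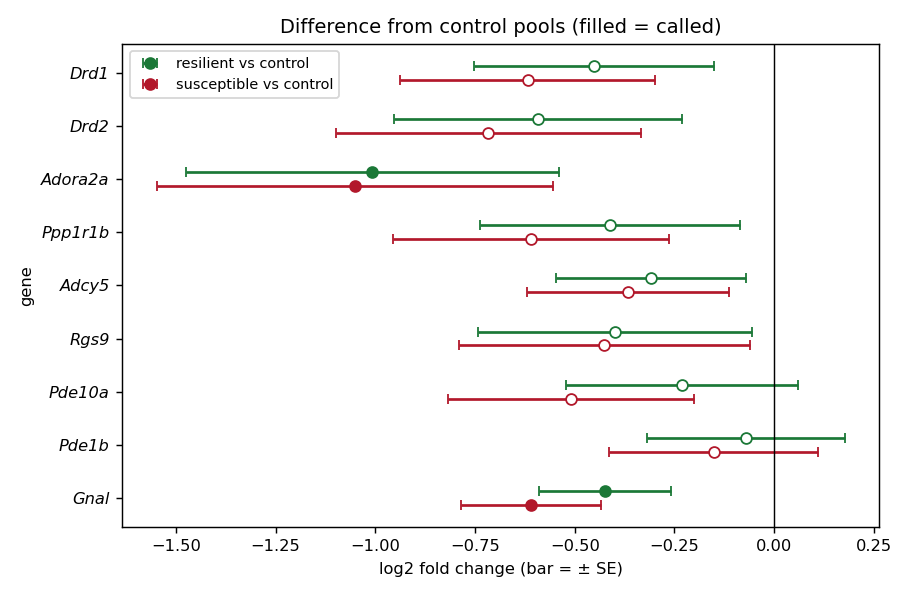
Log2 fold change (horizontal axis) of each of the 9 genes (vertical axis) in resilient and susceptible against control pools, with a bar for ± SE and a filled point where the difference was called. All points lie below 0, from −0.07 for Pde1b in resilient pools to −1.05 for Adora2a in susceptible pools, and only the points of Adora2a and Gnal are filled.

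Susceptible and resilient pools were compared directly to ask whether the genes followed the behaviour of the defeated mice. None of the 9 was called, beside 2.14% of all genes called in either direction, and the log2 differences were −0.03 for Rgs9 to −0.28 for Pde10a with an adjusted p of 1 for each by limma. For Gnal the difference was −0.19 (exact permutation p = 0.46), and it was −0.34 and called (unadjusted limma p = 0.0306, adjusted p = 1) without resilient pool 2.

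None of the 9 genes had all pools of a defeated group below all control pools. Among all genes this held for 2.18% in resilient and for 5.05% in susceptible pools. Single pools decided the count of called genes. Without resilient pool 3, 5 of the 9 were called lower in resilient pools (Drd1, Drd2, Adora2a, Adcy5 and Gnal) and 4 in susceptible pools, where the fold changes stay as they are and only the shared spread changes. In that setting the calls in either direction over all genes rose as well, from 2934 to 4309 in resilient and from 3140 to 3466 in susceptible pools. Without resilient pool 2, 0 were called in resilient and 5 in susceptible pools, with 2336 and 3307 genes called in all. Without susceptible pool 1, 6 were called in susceptible pools (Drd1, Drd2, Adora2a, Ppp1r1b, Pde10a and Gnal), and without susceptible pool 3, 1 was, with 3536 and 2924 genes called in all. The count in resilient pools was 1 without control pool 1, 4 or 5 or resilient pool 1 or 4. The count in susceptible pools was 1 without control pool 1, 2, 4 or 5, resilient pool 4 or 5, or susceptible pool 4.

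The pools differed far more in these genes than in most others. The median SD of the 9 between pools of a group was 0.288 in control, 0.739 in resilient and 0.671 in susceptible pools, beside 0.18, 0.24 and 0.204 for the 12639 genes with a mean of at least 2 log2 CPM. The fold range over the 14 pools was 5.29 for Drd2, 4.63 for Rgs9, 4.42 for Ppp1r1b, 3.9 for Pde10a and 3.7 for Drd1, and fell to 2.98 for Pde1b, 2.92 for Adcy5 and 2.29 for Gnal.

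The same pools were low or high for all of them. Resilient pool 2 was the lowest pool for 8 genes and susceptible pool 3 for Drd1, and both were among the 3 lowest pools for all 9. Resilient pool 3 was the highest for 7 genes, control pool 4 for Ppp1r1b and control pool 1 for Gnal. The median deviation from the gene means was −1.07 in resilient pool 2, −1.13 in susceptible pool 3, −0.46 in susceptible pool 4 and −0.39 in resilient pool 1 on the log2 scale. It was 0.81 in resilient pool 3 and 0.60 in control pool 4. Both of the lowest pools carried the label of a defeated group, but so did the highest one, and resilient pool 3 was also the deepest library.

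**Figure D3:**
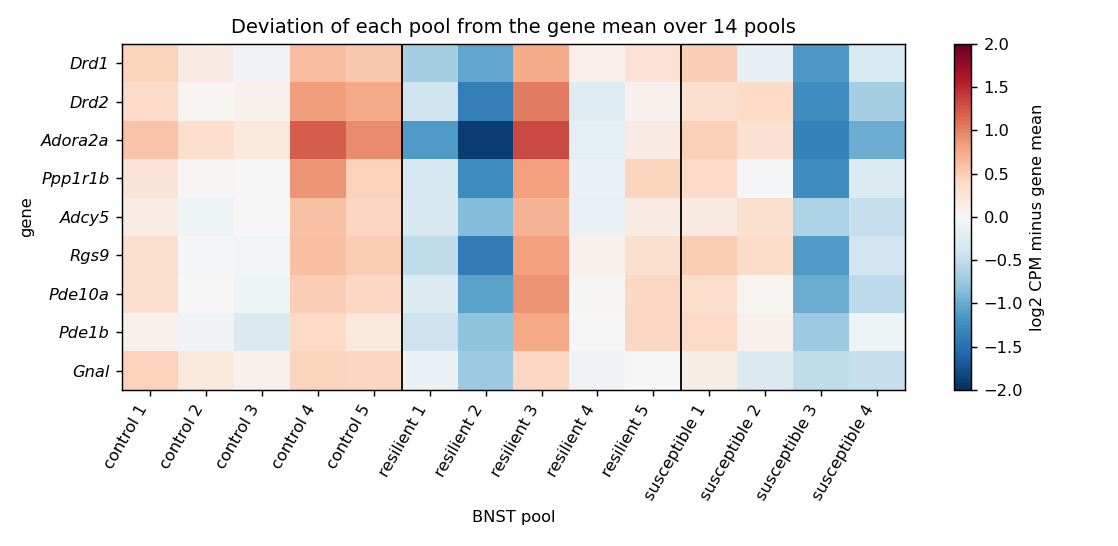
Deviation of each pool (columns, in group order) from the mean of each gene over the 14 pools (rows, the 9 genes), as log2 CPM on a colour scale from −2 (blue) to 2 (red). The columns of resilient pool 2 and susceptible pool 3 are blue in every row and that of resilient pool 3 is red in every row, with median deviations of −1.07, −1.13 and 0.81.

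Across the 14 pools the 9 genes moved together in all 36 pairs. Pearson's r was 0.742 (Pde1b and Gnal) to 0.986 (Drd2 and Adcy5) with a median of 0.944, and Spearman's rho was 0.701 to 0.987 with a median of 0.914. Permutation p-values adjusted over the 36 pairs were at most 0.00251 for r and 0.00705 for rho. The 2 pools farthest from the median were resilient pool 2 and susceptible pool 3 in every pair, and without them r was 0.49 to 0.982 with a median of 0.889. The relation was as close when group means were removed first (r 0.88 to 0.989, median 0.958), so it held within groups. The pairs share their pools and are not independent.

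The ratio of the direct to the indirect pathway receptor did not differ between groups beyond the spread of the pools. The difference of Drd1 and Drd2 was 2.25 ± 0.163 (SD, n = 5) in control, 2.39 ± 0.317 (n = 5) in resilient and 2.34 ± 0.399 (n = 4) in susceptible pools on the log2 CPM scale. The difference of Drd2 and Adora2a, both of indirect pathway neurons, was −0.08 ± 0.0964 in control, 0.34 ± 0.441 in resilient and 0.26 ± 0.200 in susceptible pools.

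The genes whose pattern was most like that of the 9 were found by Pearson's r over the 14 pools with the mean standardized profile of the 9, among 12630 other genes with a mean of at least 2 log2 CPM. They were Tgfa (r = 0.996), Sh3rf2 (0.992), Kcnip2 (0.987), Gcnt2 (0.984), Penk (0.983), Jcad (0.983), Ano3 (0.981), Inka2 (0.981), Baiap2 (0.981) and Lrrc10b (0.98). Penk encodes the enkephalin precursor of indirect pathway neurons, Tgfa a growth factor of the epidermal growth factor family and Kcnip2 a subunit of potassium channels. Penk was at 7.31, 7.00, 6.93, 7.62 and 7.57 log2 CPM in the control pools, at 6.24, 5.62, 7.73, 6.82 and 6.98 in the resilient pools and at 7.45, 6.72, 5.80 and 6.40 in the susceptible pools, with the same lowest and highest pools as Drd2. Of these 10 only Inka2 was called, in susceptible pools. The other genes had a median r of −0.00182 with 5th and 95th percentiles of −0.691 and 0.789.

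Of 18 other striatum-enriched genes 8 were called lower in resilient pools (9.04% of all genes) and 9 in susceptible pools (9.28% of all genes) and none higher, with median log2 fold changes of −0.40 and −0.57. Foxp1, a forkhead transcription factor of projection neurons, ranged from 8.80 to 9.41 log2 CPM in control pools and was at 8.31, 7.73, 8.75, 8.50 and 9.01 in the resilient pools and at 8.75, 8.02, 7.72 and 7.89 in the susceptible pools. Every susceptible pool was below every control pool for Foxp1, and its log2 fold change was −0.62 (adjusted p = 0.114 by limma) in resilient and −0.99 (adjusted p = 0.0236) in susceptible pools. Foxp2, its relative, fell by 0.77 (adjusted p = 0.0262 by limma) and Tmem158 by 1.00 (adjusted p = 0.0459) in susceptible pools. Ptpn5, a striatal tyrosine phosphatase, was at 0.05 and −0.12, and neither was called.

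Of 8 direct pathway genes other than Drd1, 2 were called lower in resilient (Ebf1 and Slc35d3) and 2 in susceptible pools (Ebf1 and Sfxn1), with median log2 fold changes of −0.42 and −0.40. Tac1, the substance P precursor, was at −0.66 and −0.65 and not called. Of 5 indirect pathway genes other than Drd2 and Adora2a, 1 was called lower in resilient (Sp9) and 2 in susceptible pools (Sp9 and Six3), with median log2 fold changes of −0.61 and −0.74. Sp9 and Six3 encode transcription factors needed for indirect pathway neurons, and Sp9 fell by 0.80 and 0.87. These counts stand beside 9.04% and 9.28% of all genes called lower in resilient and susceptible pools.

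The medians of the signalling partners were nearer to 0. Of 15 genes for G proteins, adenylyl cyclases and RGS partners, 2 were called lower in resilient (Gnai1 and Gnao1) and 4 in susceptible pools (Gnao1, Gnb1, Gng7 and Rgs7bp), with median log2 fold changes of −0.11 and −0.18. The shares of all genes called lower were 9.04% in resilient and 9.28% in susceptible pools. Gnao1, the alpha subunit of the Go protein that many inhibitory receptors use, averaged 9.15 log2 CPM in control pools, ranged from 8.68 to 8.96 in resilient pools and from 8.35 to 8.73 in susceptible pools, and no defeated pool reached the control range. It fell by 0.36 (adjusted p = 0.0573 by limma) in resilient and by 0.64 (adjusted p = 0.00869) in susceptible pools. Gng7, the gamma subunit paired with Golf in the striatum, fell by 0.72 in susceptible pools (adjusted p = 0.193 by limma). Gnas, the widely used stimulatory alpha subunit, was at −0.09 and −0.18 and was not called.

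Of 22 genes for protein kinase A, phosphatases and partners of DARPP-32, 4 were called lower in resilient and 7 in susceptible pools, and Cdk5, a kinase of DARPP-32, was called higher in susceptible pools. The median log2 fold changes were −0.17 and −0.26. Ppp3ca and Ppp3r1, the catalytic and regulatory subunits of the phosphatase calcineurin, fell by 0.94 (adjusted p = 0.0198 by limma) and by 0.52 (adjusted p = 0.0492) in susceptible pools. Prkaca, a catalytic subunit of protein kinase A, fell by 0.49 (adjusted p = 0.0303 by limma) in susceptible pools. Of 9 other phosphodiesterases 1 was called lower in resilient (Pde1c) and 2 in susceptible pools (Pde1c and Pde7b), and Pde7a was called higher in susceptible pools. Their median log2 fold changes were −0.19 and −0.05. The counts of both lists stand beside 9.04% of all genes called lower in resilient and 9.28% in susceptible pools. In susceptible pools 9.65% of all genes were called higher.

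Of 8 genes for the synthesis, transport and breakdown of dopamine, 2 were called lower in resilient pools, beside 9.04% of all genes, and 0 in susceptible pools by limma, beside 9.28%, with median log2 fold changes of −0.06 and −0.00. Spr, an enzyme for the cofactor of dopamine synthesis, fell by 0.62 in resilient pools (adjusted p = 0.162 by limma). Slc18a2, the vesicular monoamine transporter, was at 1.35 log2 CPM in control pools and was not called. The other dopamine receptors were scarce, with Drd3 at 0.36 and Drd5 at 0.71 log2 CPM in control pools, and neither was called.

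**Figure D4:**
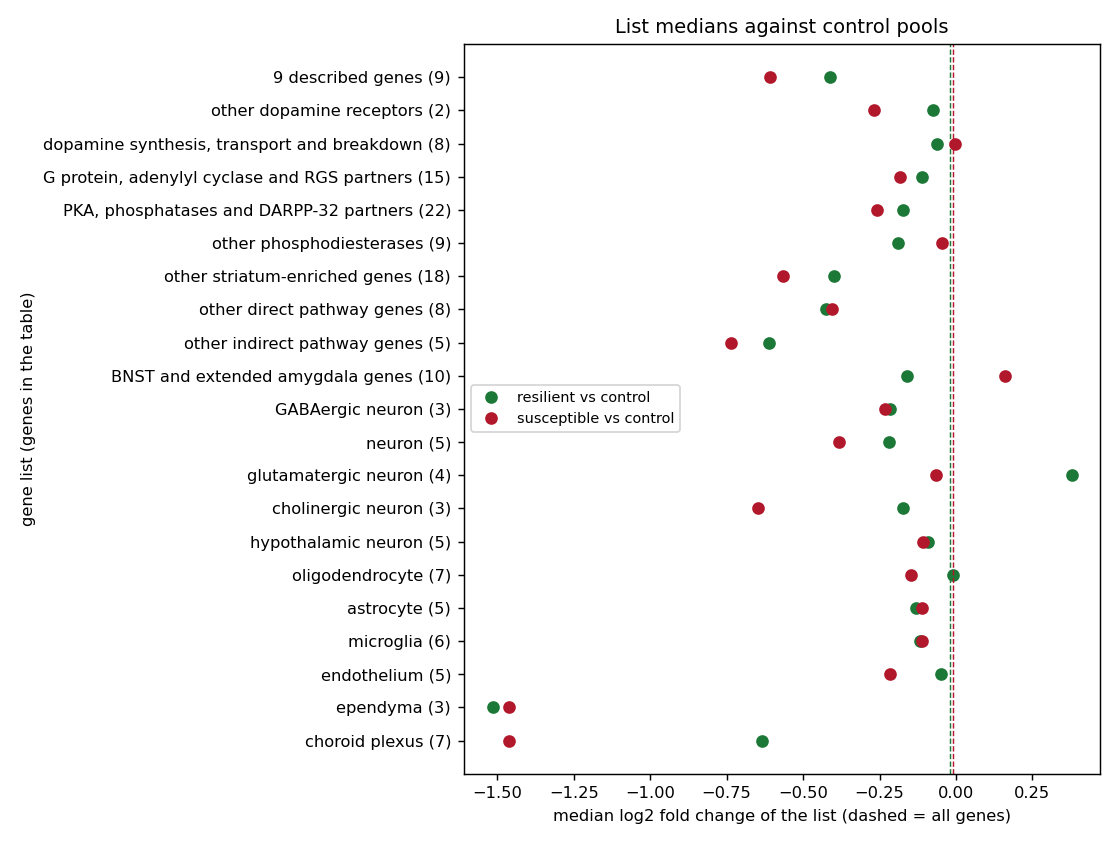
Median log2 fold change (horizontal axis) of each gene list (vertical axis, with the number of genes in the table) in resilient and susceptible against control pools, with dashed lines for all genes. The 9 genes lie at −0.41 and −0.61, beside other striatum-enriched genes at −0.40 and −0.57, and the ependyma and choroid plexus lists reach −1.46 in susceptible pools.

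The tissue label was compared with markers. GABAergic markers were abundant, with Gad1 at 8.32 and Gad2 at 8.20 log2 CPM in control pools. Of 10 BNST and extended amygdala genes the most abundant was Prkcd, the protein kinase C delta of the oval nucleus and central amygdala, at a mean of 8.02, and 4 (Crh, Cartpt, Cyp19a1 and Calcr) were under 1 log2 CPM on average. The punch was taken below the lateral ventricles, and the share of neighbouring striatum in each pool was not measured.

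Markers of several other cell types moved with the groups, and their part in the differences above was not tested. All marker counts stand beside 9.04% of all genes called lower in resilient and 9.28% in susceptible pools. The shares called higher were 8.65% and 9.65%. No marker of any list was at 0 reads in all pools. Of 10 BNST and extended amygdala genes, Prkcd was called higher (log2 fold change 0.64, adjusted p = 0.238 by limma) in resilient pools and Esr1 was called higher in susceptible pools. The Prkcd call was lost in 16 of 23 other settings of the fit, and the Esr1 call in 12. Over the settings the log2 fold change was 0.45 to 0.93 for Prkcd and 0.37 to 0.78 for Esr1. Summed, this list reached 629.7 CPM in resilient pool 2 and 469.5 CPM in susceptible pool 3, the pools lowest in the 9 genes, and 218.4 CPM in resilient pool 3, the highest, although resilient pool 5 reached 582.8 CPM as well. Prkcd alone gave 544.7, 359.6 and 518.3 CPM of the sums in resilient pool 2, susceptible pool 3 and resilient pool 5, so 1 gene carried most of the list. All 3 ependyma markers were called lower in both defeated groups, with Foxj1 at −0.56 and −0.95, Ccdc153 at −1.52 and −1.46 and Tmem212 at −1.81 and −1.97, and their sum was 13.28 to 29.34 CPM in control, 6.074 to 20.29 in resilient and 6.904 to 9.636 in susceptible pools. Tmem212 averaged under 1 log2 CPM.

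Of 7 choroid plexus markers 1 was called lower in resilient and 5 in susceptible pools, with Ttr at −3.82, Kl at −1.46 and Folr1 at −2.80 in susceptible pools. Folr1 averaged under 1 log2 CPM. Ttr, the transthyretin of the choroid plexus, was at 6.81, 4.40, 6.46, 6.82 and 0.61 log2 CPM in the control pools, at 6.08, 3.50, 6.37, 1.79 and 2.00 in the resilient pools and at −0.19, 0.24, −0.31 and 5.04 in the susceptible pools. The ependyma and choroid plexus line the ventricle next to the punch.

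Of 5 general neuron genes 1 was called lower in resilient (Rbfox3) and 4 in susceptible pools (Snap25, Syt1, Rbfox3 and Map2), and Tubb3 was at −0.11 and −0.16. Rbfox3 fell by 0.66 (adjusted p = 0.0339 by limma) in susceptible pools, beside −0.62 for Drd1, which was not called, and the list summed to 2098 to 2328 CPM in control, 1893 to 2072 in resilient and 1471 to 2006 in susceptible pools. Of 3 GABAergic genes 0 were called in resilient pools by limma and Slc32a1 was called lower in susceptible pools (−0.49), while Gad1 was at 0.12 and 0.06 and Gad2 at −0.22 and −0.23. None of 4 glutamatergic genes (Slc17a7, Slc17a6 and Tbr1 among them), 3 cholinergic genes (Chat, Slc5a7 and Slc18a3) and 5 hypothalamic genes was called, and among the last Oxt was at −1.53 and −2.09, Trh at −0.55 and −0.47 and Pmch at 1.63 and 1.64. Oxt and Pmch averaged under 1 log2 CPM, so their fold changes rest on few reads.

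Of 7 oligodendrocyte genes 2 were called lower in resilient (Cldn11 and Cnp) and 3 in susceptible pools (Cldn11 and Cnp among them), and Mag was called higher in both. Cnp fell by 0.44 (adjusted p = 0.0209 by limma) and Cldn11 by 0.46 (adjusted p = 0.0418) in susceptible pools. Of 5 astrocyte genes Slc1a3 and Gja1 were called lower and Aldh1l1 higher in susceptible pools, Gfap and Aqp4 were not called, and none was called in resilient pools. Of 6 microglia genes P2ry12 was called lower and Csf1r higher in both groups, and Trem2 was at −0.17 and −0.35 without a call. Of 5 endothelial genes Flt1 was called lower in susceptible pools, and Cldn5, Pecam1, Ly6c1 and Slco1a4 were not called.

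Drd1 was set beside the most abundant gene of each of 12 marker lists, the number of reads, the mitochondrial share of reads and the first principal component of the other genes over the 14 pools, with measures chosen after their values were seen and p-values adjusted over 15 relations. It followed Slc5a7, the choline transporter of cholinergic neurons (r = 0.744, permutation p = 0.00244, adjusted p = 0.0183, rho = 0.714 with adjusted p = 0.0394, r = 0.605 without the 2 farthest pools, 0.735 on deviations from group means). Slc5a7 was at 3.34 log2 CPM in susceptible pool 3 and at 3.62 in resilient pool 2, and at 4.56 in control pool 5. Other pools followed less closely. Slc5a7 was at 3.43 in control pool 3, where Drd1 was at 7.54. In resilient pool 3, the highest for Drd1 at 8.36, it was at 4.26. Against Prkcd the relation was −0.617 (rho −0.596, permutation p = 0.0189 and 0.0269, adjusted p = 0.0945 and 0.135, r = −0.414 without the 2 farthest pools, −0.547 on deviations from group means) and did not pass the adjustment. Prkcd was at 9.09 in resilient pool 2 and 7.14 in resilient pool 3, the pools at or near the ends for Drd1, and also at 9.02 in resilient pool 5, where Drd1 was at 7.90. With Gad1 r was 0.369 (rho 0.411, permutation p = 0.194 and 0.146, adjusted p = 0.324 and 0.281) over all pools and 0.781 on deviations from group means, so Drd1 and Gad1 ran together within groups, although Gad1 stayed within 8.21 to 8.52 log2 CPM in all pools. With the number of reads r was 0.223 (rho 0.191, permutation p = 0.446 and 0.511, adjusted p = 0.609 and 0.696), and with the mitochondrial share of reads 0.0759 (rho 0.0154, permutation p = 0.796 and 0.965, adjusted p = 0.937 and 0.987). The 9 other genes had r from −0.508 (Prlr) to 0.412 (Cx3cr1), and their adjusted p was at least 0.245 for r and 0.206 for rho. On deviations from group means r was −0.663 for Slc17a6, the vesicular glutamate transporter, and −0.532 for Prlr, with no test of these within-group values. Prlr stood for the choroid plexus list but not for its direction. Of the 7 choroid plexus genes 6 had a positive r with the mean standardized profile of the 9 described genes (median 0.201).

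The first principal component of the 12630 other genes held 31.6% of their variance and followed Drd1 (r = 0.825, permutation p = 0.00023, adjusted p = 0.00345, rho = 0.833 with adjusted p = 0.00585). Without the 2 farthest pools r was 0.805, and it was also 0.805 on deviations from group means. All 5 control pools scored 9.83 to 24.1 on it, resilient pool 3 scored 27.1, beside the controls, and resilient pool 2 scored −37.8 at the other end. Resilient pool 3 thus stood with the control pools over the transcriptome and not only in these genes.

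**Figure D5:**
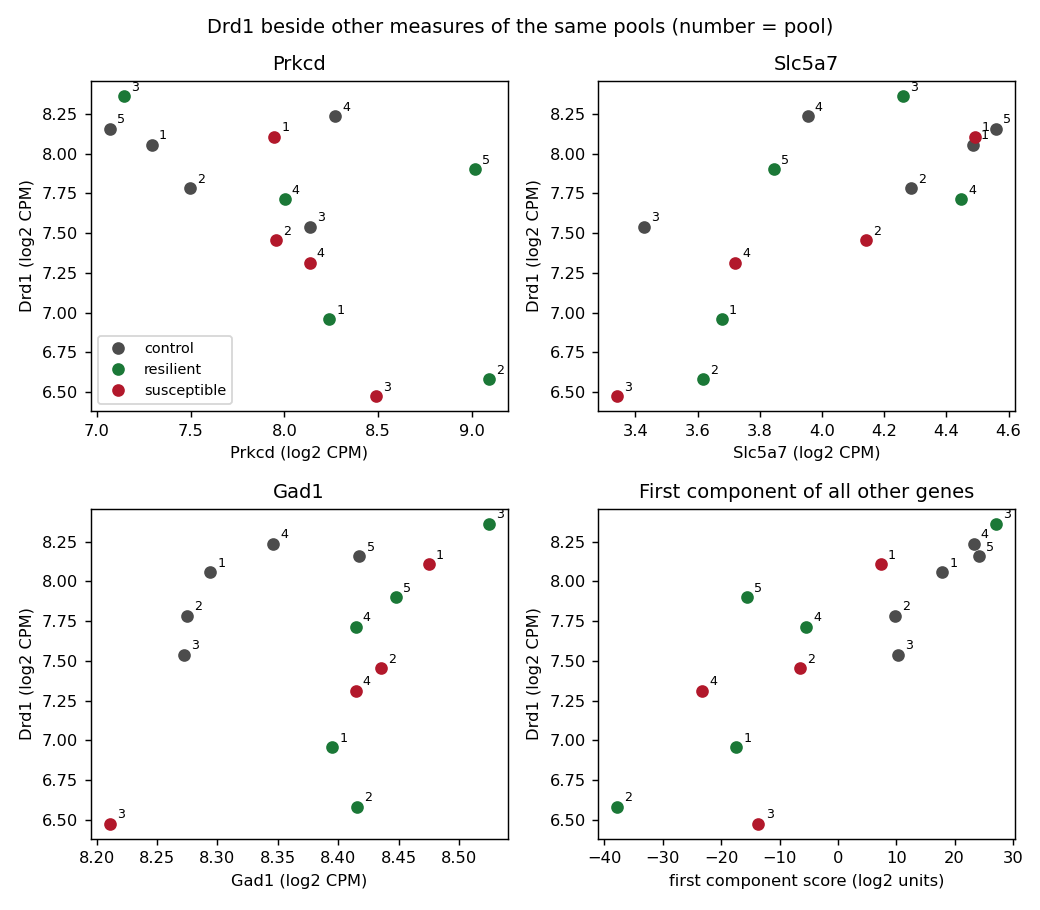
Drd1 in log2 CPM (vertical axes) against Prkcd, Slc5a7 and Gad1 in log2 CPM and the score of the first principal component of the other genes (horizontal axes), 1 point per pool with its number and group colour. Drd1 runs with Slc5a7 (r = 0.744) and with the first component (r = 0.825), and with Gad1 within groups (r = 0.781 on deviations from group means), where Drd1 spans 6.47 to 8.36 and Gad1 8.21 to 8.52.

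In blood of B6 mice from the same series (5 mice in each group, 13084 genes) 5 of the 9 genes had a row and Drd1, Drd2, Ppp1r1b and Rgs9 had none. Adcy5 was at 1.56 ± 0.561 log2 CPM (SD, n = 15), Pde1b at 1.51 ± 0.585, Adora2a at 0.84 ± 0.386, Pde10a at 0.69 ± 0.835 and Gnal at 0.50 ± 0.584, all below the median gene at 3.24. The blood levels were not tested between groups.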

How the data were processed

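The authors aligned AGO2 immunoprecipitated mRNA reads to GRCm38 with STAR, counted them over gene exons with HTSeq, removed genes of low abundance and deposited log2 CPM values as voom writes them, that is log2 of reads plus 0.5 relative to a scaled library size. The authors' later correction for experimental cohort was not in the deposited log2 values, and cohort is not among the labels. The miRNA reads were quantified by the authors with miRDeep2 and Bowtie 1.1.1, and those and the blood values were deposited on the same log2 CPM scale. Whole reads were recovered from 100% of the AGO2 mRNA values (within 0.0001 read) and gave the depths. PCR duplicates cannot be told from separate molecules.

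The 16587 genes were fitted with limma 3.58.1 (R 4.3.3) as 1 mean per group over the 14 pools, with a mean-variance trend, two-sided tests and Benjamini-Hochberg adjustment over all genes. A gene was called at p under 0.05 with a fold change of at least 1.2. Exact permutation tests and correlations (100000 resamples) used scipy 1.17.1, numpy 2.4.6 and pandas 2.3.3 (Python 3.11.15), and figures matplotlib 3.10.9. The limma fit was tested on simulated data. Lengths, UTRs and coordinates came from GENCODE M21 and sequences from the GRCm38 genome and RefSeq. For each gene the transcript with the longest 3′ UTR was searched, with no choice by transcript type.

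The 9 genes and the lists were chosen with earlier results of these data known, and calls within the lists are not independent evidence. Named from each list were genes with an adjusted p under 0.05 against control pools, otherwise up to 3 with the smallest p, and all genes of lists of 5 or fewer. The 10 genes most like the 9 were those with the highest r. Ptpn5, Tac1, Gnai1, Gnb1, Gng7, Gnas, Rgs7bp, Cdk5, Crh, Cartpt, Cyp19a1, Calcr, Mag, Prlr and Cx3cr1 were named after their values were seen. In the blood values, 10 columns of single samples, named for the other strain of the study, were not used. Other settings of the fit were an analysis without the trend, sample weights, quantile scaling, scaling to recovered reads, voom weights, 2 pseudocount reads, a mean of at least 2 log2 CPM, only the compared groups, a replicate block and each pool left out in turn. Some genes of the lists are not reported here. Blood miRNA and BNST total RNA were not analysed here.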

Additional observations from a re-analysis of the deposited data

Results flagged for a closer look

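None of the 9 genes had a pool that stood apart from its group by Dixon's ratio. Over 78 genes, 234 groups were tested and 9 were flagged, and chance flags about 1 in 20 groups. In control pools the single values that stood apart were 2.24 log2 CPM for Spr in pool 1 and 4.17 for Aldh1l1 in pool 2. In resilient pools they were 6.63 for Aqp4 in pool 3, 0.61 for Trem2 in pool 4 and 2.10 for Ly6c1 in pool 5. In susceptible pools they were 5.41 for Pde1c in pool 1, 5.76 for Sfxn1 in pool 2, 7.33 for Tubb3 in pool 1 and 5.04 for Ttr in pool 4. Resilient pool 2 and susceptible pool 3, the lowest for the 9 genes, are not among these pools.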

How the results depend on the processing

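The signs of all 9 genes against control pools were negative in the 24 settings, other than those of Pde1b in both defeated groups and of Pde10a in resilient pools. In susceptible against resilient pools the sign was negative in 24 of 24 settings for Pde10a and Gnal. It was negative in 14 for Rgs9 and in 16 to 22 for the other genes. Gnal was called lower in 23 of 24 settings in resilient and in 24 of 24 in susceptible pools, and Adora2a in 14 and 12. The number of the 9 genes called lower in resilient pools, 2 as reported, was 1 without the mean-variance trend, with voom weights, at a mean of at least 2 log2 CPM and with the replicate block, and was 3 with sample weights (Drd2, Adora2a and Gnal). In susceptible pools it was also 2 as reported, was 1 without the trend, with scaling to recovered reads, at a mean of at least 2 log2 CPM and with the replicate block, and was 6 with sample weights and with only the compared groups. In each case with 1, it was Gnal. With each pool left out in turn it was 0 to 5 in resilient, 1 to 6 in susceptible and 0 to 1 in susceptible against resilient pools. The number of the 9 under 0.05 by the exact permutation test, 1 against each defeated group, was 0 in resilient pools with scaling to recovered reads, and with each pool left out 0 to 3 in resilient, 0 to 3 in susceptible and 0 in susceptible against resilient pools. The cause was not tested.

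Over all genes, 2934, 3140 and 355 were called in the 3 comparisons, and 2336 to 4309, 2383 to 3536 and 288 to 947 with each pool left out. Susceptible against resilient pools gave 539 with voom weights and 219 at a mean of at least 2 log2 CPM. The median r between the 9 genes was 0.944 and 0.889 without the 2 pools farthest from the median. The replicate numbers do not pair the pools: over 13 same-numbered pairs the correlation of deviations was −0.277 to 0.298, 2 were over 0.1, and 2 correlated best with their own number. With the replicate block 2737, 2937 and 291 genes were called. With 5 and 4 pools, differences of the size seen for Drd1, Drd2 and Ppp1r1b were within 2 SE.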
